A study of Mus musculus with 36 samples.

Results

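The 29 genes described here encode proteins of the chemical synapse: the machinery that releases neurotransmitter vesicles and the scaffolds and adhesion proteins that hold the synapse together. They were taken by gene symbol, and each symbol named 1 row among the 56184 genes of the deposited count table. The libraries are from brain tissue of mice of the genotypes Gpt2-WT (WT) and Gpt2-KO (KO), collected on postnatal day 19, with polyadenylated RNA taken from 10 mg of tissue. Each genotype received vehicle or 600 mg per kg of dm-αKG, an esterified form of α-ketoglutarate that enters cells, by intraperitoneal injection. This gives 4 groups: WT-Veh (10 libraries), WT-aKG (8), KO-Veh (10) and KO-aKG (8). Gpt2 is the mitochondrial alanine transaminase. Which part of Gpt2 was deleted and in which cells, and the strain, the sex and the brain region sampled, are not stated by the labels. They call the replicates biological but tie none to an animal. A p-value here therefore speaks of the spread among these libraries, which may be technical in part.

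At a presynaptic terminal, vesicles filled with transmitter dock at the active zone, and calcium entry makes the SNARE proteins of vesicle and plasma membrane pull both membranes together. Synaptotagmins sense the calcium, complexins clamp and promote fusion, and RIM, Munc13, Bassoon and Piccolo organise the release site. Across the cleft, neurexins bind neuroligins, and PSD-95, Shank and Homer proteins anchor glutamate receptors beside the kinase CaMKII. Several of these proteins exist as paralogues used to different degrees in forebrain and hindbrain: Syt2 and Vamp1 are known for fast synapses of hindbrain and spinal cord, Syt1, Vamp2 and Camk2a for the forebrain.

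The RefSeq table of promoters (GRCm38.p6, 250 bases before to 50 after each start) held 34 entries for 22 of the 29 genes. The entries had a median GC content of 60.3% and a median of 16 CpG dinucleotides, against 52.7% and 7 over all 32851 entries. The letters GGGCGG (the GC box, both strands searched) occurred in 18 of the 34 entries (17 genes) and in 35.7% of all entries. TTCAGCACC, the left part of RE1, to which the repressor of neuronal genes REST binds, occurred in 3 of the 34 entries (1 each of Syn1, Unc13a and Nlgn1) and in 0.371% of all entries. TGACGTCA, the cAMP response element, occurred in 1 of the 34 (Syn1) and in 1.79% of all entries, and TATAAA in 2 of the 34 (both Sv2b) and in 13.6% of all entries. None of the 4 motifs contains another. A match is a run of letters, not a measured binding site. The sequences below show the RE1 matches and the promoter of Rims1, whose difference between genotypes with dm-αKG was called without each library in turn in the covariate fit. Capitals mark matches, all 4 genes lie on the minus strand, and each sequence reads 5′ to 3′ along its gene. The last 35 bases of an entry, which lie after its start, were found in a GENCODE transcript of the gene for 28 of the 34 entries. For the Syn1 and Unc13a entries shown they were found, and for the Nlgn1 and Rims1 entries shown they were not. Start sites themselves were not compared, so this does not decide whether a start is right.
Syn1, chrX:20920919-20921168, 250 bases before the start, RE1 left part 232 and cAMP response element 159 bases before it: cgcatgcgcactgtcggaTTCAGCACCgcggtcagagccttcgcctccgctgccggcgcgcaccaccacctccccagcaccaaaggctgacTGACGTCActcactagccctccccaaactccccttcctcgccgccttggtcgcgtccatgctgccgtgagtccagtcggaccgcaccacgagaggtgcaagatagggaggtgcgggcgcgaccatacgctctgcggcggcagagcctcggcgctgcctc
Nlgn1, chr3:26154121-26154149, RE1 left part 153 bases before the start: gtgattggagTTCAGCACCctggttacta
Unc13a, chr8:71671717-71671745, RE1 left part on the opposite strand, 22 bases after the start: ccgcgcccccGGTGCTGAAgcgacatggc
Rims1, chr1:22806159-22806408, 250 bases before the start, GC boxes 192 and 129 bases before it: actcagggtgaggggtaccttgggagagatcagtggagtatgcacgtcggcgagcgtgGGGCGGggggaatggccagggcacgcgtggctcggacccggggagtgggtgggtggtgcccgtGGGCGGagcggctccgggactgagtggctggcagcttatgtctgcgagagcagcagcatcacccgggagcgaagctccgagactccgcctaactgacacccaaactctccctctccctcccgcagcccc

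Libraries held 5768225 to 13267397 counts. Gpt2 was at 22.04 to 39.03 CPM in WT and 0.881 to 3.30 CPM in KO libraries. Sex was inferred from expression, by whether the sex marker Xist exceeded Ddx3y, and served as a covariate in alternative fits only. Given dm-αKG, 5 of 8 WT and 4 of 8 KO libraries had Xist above Ddx3y. With vehicle this held for 2 of 10 libraries in either genotype. Inferred sex was therefore spread unevenly between the treatments. Pan-neuronal markers were present throughout, with a mean log2 CPM over 12 genes of 6.87 to 7.86. Libraries of a group differed in their content of brain regions. The cerebellum score, the mean log2 CPM of 21 cerebellar markers that include none of the 29 genes, ran from 0.77 to 6.89. A score over 1 log2 unit higher than the average library is called high here. Cerebellum-high libraries numbered 3 in WT-Veh, 4 in WT-aKG, 1 in KO-Veh and another 1 in KO-aKG. By that rule, a hindbrain score over the 5 of 13 markers that passed the low-count filter was high in 2, 2, 0 and 5 libraries of these groups, and its means were -0.03 in WT-Veh, 0.18 in WT-aKG, -0.84 in KO-Veh and 1.29 in KO-aKG. Mitochondrial ribosomal RNA took 14.1% to 29.8% of the counts. Its means were 22.6% in WT-Veh, 20.5% in WT-aKG, 19.9% in KO-Veh and 17.8% in KO-aKG, so it differed with the groups. The cerebellum score averaged 3.91 in WT-Veh, 3.77 in WT-aKG, 2.55 in KO-Veh and 2.77 in KO-aKG. The covariate was thus lower on average in both KO groups, with ranges that overlap those of WT. Because cerebellar content differed between libraries, each comparison was fitted without a covariate and with the cerebellum score as a covariate.

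All 29 genes passed the low-count filter, and their spread was wide. Within groups, the SD of log2 CPM had a median of 0.54 over the 29 genes, against 0.36 over the 16255 genes tested. With the cerebellum score in the model these medians were 0.42 and 0.30. The score removed a median of 37.3% of the variance of the 29 genes and of 20.1% over all genes tested. The widest spread was that of Camk2a, the α subunit of CaMKII, with an SD of 1.91, followed by Syt2, a fast calcium sensor of release, with 1.57 and Stx1a, a SNARE of the plasma membrane, with 1.51. Rims2, an active zone scaffold of the RIM family, and Nlgn2, the neuroligin of inhibitory synapses, varied least, with SDs of 0.21 and 0.24.

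Most of the 29 genes followed the cerebellum score. At an adjusted p under 0.05, 21 changed with it, 17 lower and 4 higher, beside 57.4% of all genes tested (28.4% lower and 29.1% higher). With limma on the unscaled CPM values, 14 were lower and 7 higher. The median slope was -0.11 log2 units per unit of score, against 0.00 over all genes tested. Syt2 had the steepest rise (slope 0.68, SE 0.07, edgeR adjusted p = 2.16e-09) and Camk2a the steepest fall (slope -0.74, SE 0.11, adjusted p = 5.26e-07). Among the 27 libraries without a high score Syt2 lay between 3.09 and 62.4 CPM with a median of 8.09, and in the 9 libraries with a high score between 46.4 and 87.8 CPM with a median of 65.1. Camk2a had a median of 1280 CPM (66.5 to 2740) in the 27 libraries and of 113 CPM (25.8 to 467) in the 9. Both genes therefore overlapped between these sets of libraries, over part of their ranges. In bulk tissue, fewer cells of a type and less RNA per cell cannot be told apart.

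**Figure D1:**
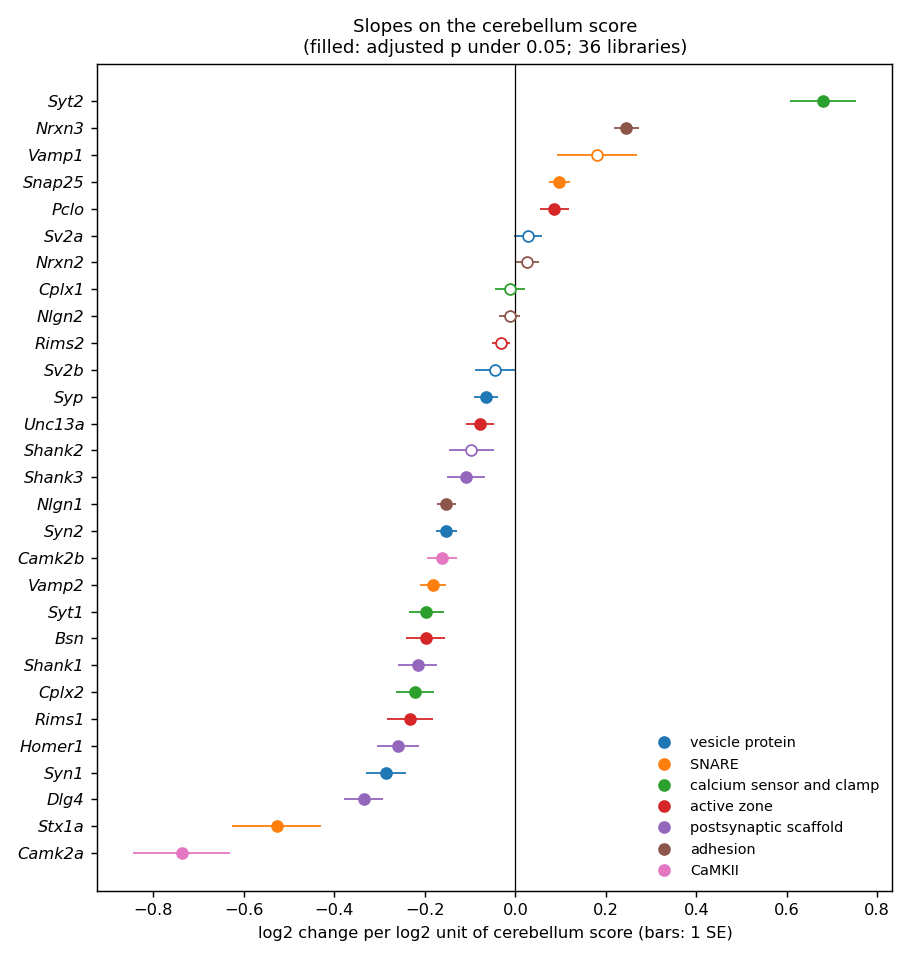
Slope of each of the 29 genes on the cerebellum score, in log2 units of expression per log2 unit of score, from the edgeR model with 36 libraries. Points are estimates, bars 1 SE, colours the role of the protein and filled points an adjusted p under 0.05; Syt2 stands at 0.68 and Camk2a at -0.74.

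By role, the slopes were mixed among presynaptic genes. Of the vesicle proteins, Syn1 (-0.29, SE 0.04) and Syn2 (-0.15, SE 0.02), synapsins that tether vesicles to the cytoskeleton, and Syp (-0.06, SE 0.03), the vesicle membrane protein synaptophysin, fell with the score. Sv2a (0.03) and Sv2b (-0.05), transporter-like vesicle proteins, were not called. Of the SNAREs, Stx1a (-0.53, SE 0.10) and Vamp2 (-0.18, SE 0.03), the forebrain's main vesicle SNARE, fell, and Snap25 (0.10, SE 0.02), their partner on the plasma membrane, rose. Vamp1 had a slope of 0.18 that was not called (adjusted p = 0.0798). The calcium sensor Syt1 (-0.20, SE 0.04) and the complexin Cplx2 (-0.22, SE 0.04) fell, while Cplx1 (-0.01) was not called.

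At the active zone Rims1 (-0.23, SE 0.05), Bsn (-0.20, SE 0.04), which encodes Bassoon, and Unc13a (-0.08, SE 0.03), the priming factor Munc13-1, fell, and Pclo (0.09, SE 0.03), which encodes Piccolo, rose. Of the postsynaptic scaffolds, Dlg4 (-0.34, SE 0.04), which encodes PSD-95, Homer1 (-0.26, SE 0.05), Shank1 (-0.22, SE 0.04) and Shank3 (-0.11, SE 0.04) fell, and Shank2 (-0.10) was not called. Of the adhesion genes, Nrxn3 (0.24, SE 0.03), a neurexin, rose, Nlgn1 (-0.15, SE 0.02), the neuroligin of excitatory synapses, fell, and Nrxn2 (0.03) and Nlgn2 (-0.01) were not called. Camk2b (-0.16, SE 0.03), the β subunit of CaMKII, fell. With scores for 4 other regions added to the model, 3 of these slopes were still called, those of Snap25, Syt2 and Nrxn3, and 7 changed sign, all then with an adjusted p of at least 0.124. Of the 21 calls, 4 were lost when single libraries were left out: Syp without any of 13 libraries (KO-aKG replicates 1, 6 and 8, KO-Veh replicates 1, 3 and 7, WT-aKG replicates 1, 3, 4 and 7, and WT-Veh replicates 1, 6 and 9; highest adjusted p = 0.103), Unc13a without KO-aKG replicate 1, KO-Veh replicate 7, WT-aKG replicate 4 or WT-Veh replicate 4 (0.103), Shank3 without KO-Veh replicate 7 or WT-Veh replicate 1 (0.055) and Pclo without WT-Veh replicate 1 (0.0742).

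**Figure D2:**
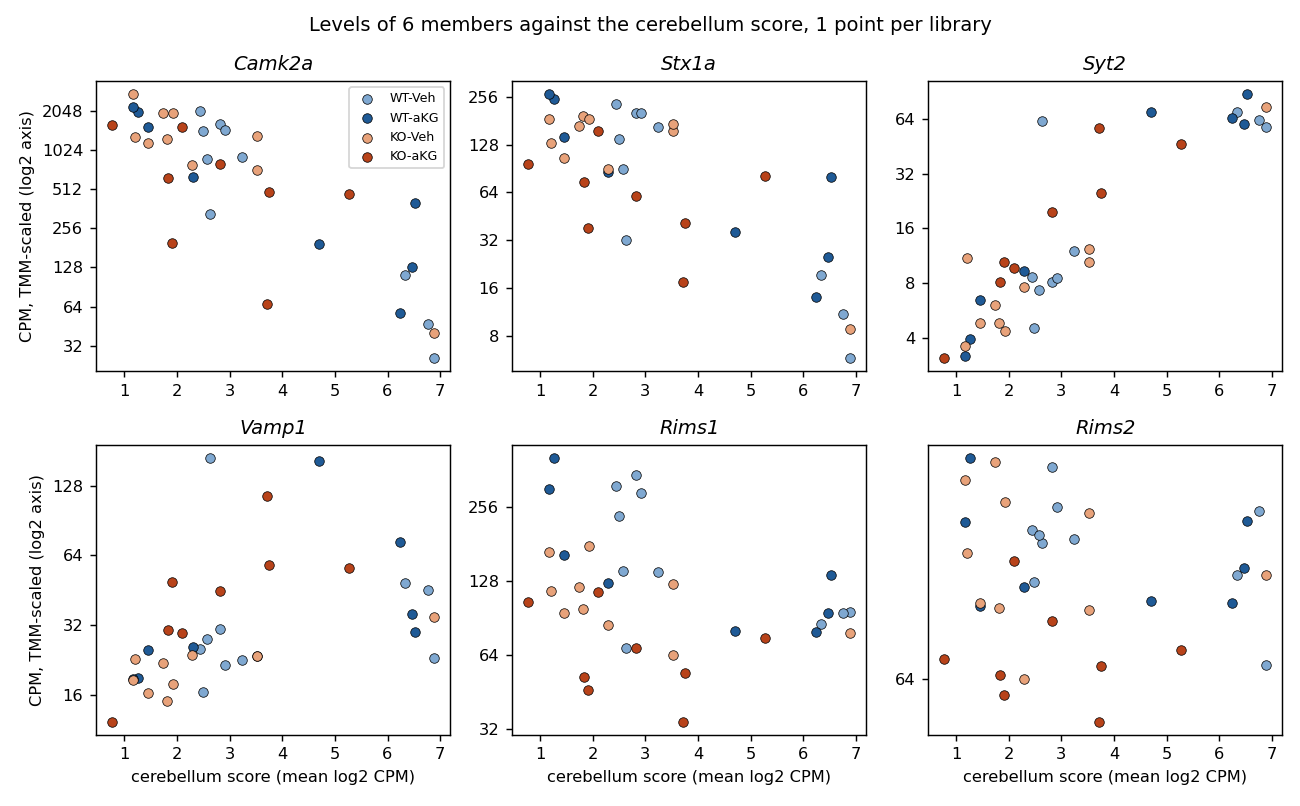
Levels of Camk2a, Stx1a, Syt2, Vamp1, Rims1 and Rims2 in CPM (log2 axis) against the cerebellum score, 1 point per library, coloured by group. Camk2a and Stx1a go down and Syt2 goes up along the score, while Rims2 stays between 57.4 and 113 CPM.

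The first comparison between genotypes asks what loss of Gpt2 changes in vehicle-treated mice. Without the covariate none of the 29 genes was called by edgeR, beside 4.31% of all genes tested (2.6% higher and 1.72% lower). Of the 29, 5 had an unadjusted p under 0.05, a threshold at which all genes tested were not counted. DESeq2 also called 0. The differences had both signs, 16 above and 13 below 0, with a median of 0.09 against -0.02 over all genes tested. With the cerebellum score as covariate, 2 of 29 fell in KO-Veh, beside 2.58% of all genes tested that fell, 3.36% that rose and 5.94% in either direction: Rims1 and Syn2. DESeq2 called both too.

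Rims1 encodes RIM1, which links vesicles, calcium channels and Munc13 at the active zone. Its levels in WT-Veh libraries ran from 68.7 to 345 CPM with a median of 139, and in KO-Veh libraries from 63.9 to 178 CPM with a median of 107. The ranges overlap, 4 of 10 WT-Veh libraries stood above every KO-Veh library, and 8 of 10 KO-Veh libraries lay below the WT-Veh median. Means were 180.2 ± 104 and 112.7 ± 37.0 CPM (SD, n = 10 each). The log2 fold change was -0.68 (SE 0.31, edgeR adjusted p = 0.206) without the covariate and -0.91 (SE 0.25, 95% interval -1.41 to -0.42, adjusted p = 0.0268) with it. The call with the covariate was lost without WT-Veh replicate 4, 7 or 8, with adjusted p-values up to 0.074. With the mitochondrial ribosomal RNA share as a further covariate it was -0.81 (adjusted p = 0.0591).

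Syn2 encodes synapsin II, a phosphoprotein on the vesicle surface. Its levels ran from 135.6 to 321 CPM with a median of 194 in WT-Veh and from 117 to 224 CPM with a median of 186 in KO-Veh. The ranges overlap, and 4 of 10 WT-Veh libraries lay above the highest KO-Veh library. The log2 fold change was -0.18 (SE 0.16, adjusted p = 0.547) without and -0.37 (SE 0.11, 95% interval -0.59 to -0.15, edgeR adjusted p = 0.0443) with the covariate. This call was lost when any of 19 of the 36 libraries was left out (KO-aKG replicates 3 and 4, KO-Veh replicates 2 to 7 and 10, WT-aKG replicates 1 to 4 and 7, and WT-Veh replicates 3, 6, 7, 8 and 10), with adjusted p-values up to 0.117. Exons of Timp4 lie on the opposite strand within Syn2, and the sources used here do not say whether counting used strand.

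The other 27 genes had covariate-adjusted differences from -0.82 to 0.27. The lowest were Vamp1, the vesicle SNARE of fast hindbrain synapses (-0.82, SE 0.40, edgeR adjusted p = 0.24), and Syt2 (-0.55, SE 0.38, adjusted p = 0.435). Their values without the covariate were -0.98 (SE 0.41, adjusted p = 0.16) and -1.11 (SE 0.67, adjusted p = 0.339). Hindbrain-high libraries were 2 of 10 in WT-Veh and 0 of 10 in KO-Veh, and Vamp1 in those 2 stood at 45.3 and 168.5 CPM, against 16.4 to 48.4 CPM in the other 8 WT-Veh and 15.1 to 34.6 CPM in the KO-Veh libraries. All 5 hindbrain markers tested were below 0 in this comparison, with a covariate-adjusted median of -3.65, and so were all 10 oligodendrocyte markers, with a median of -0.39. As only 5 of 13 hindbrain markers passed the low-count filter, their shared sign and median may follow from it and are not taken as separate support. With scores of the cerebral cortex, striatum, hypothalamus and hindbrain added to the cerebellum score, Vamp1 was at -0.31 (adjusted p = 0.25) and Syt2 at -0.05 (adjusted p = 0.936). In that fit 3 genes were called, Rims1 (-0.81, adjusted p = 0.00119), Syn2 (-0.39, adjusted p = 0.00659) and Nlgn2 (-0.33, adjusted p = 0.0343). The part of the oligodendrocyte content was not tested. With the mitochondrial ribosomal RNA share beside the cerebellum score the 3 genes called were Syn2 (-0.50, adjusted p = 0.00544), Sv2a (-0.50, adjusted p = 0.0165) and Nlgn2 (-0.41, adjusted p = 0.0227). Without the 9 hindbrain-high libraries of the series, Rims1 (-1.04, adjusted p = 0.0117) and Syn2 (-0.42, adjusted p = 0.0379) remained called. Without KO-Veh replicate 7, which has a high cerebellum score, Syt2 was called in the fit without the covariate (-2.06, adjusted p = 0.0389). With the mitochondrial ribosomal RNA share as the covariate, 4 of 29 genes were called in place of 0: Syt2 (-2.17), Vamp1 (-1.26), Nrxn3 (-0.69) and Sv2a (-0.39), beside 2675 of the 16255 genes tested. Alternative settings with the cerebellum covariate called 503 to 1952 of all genes tested in this comparison.

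**Figure D3:**
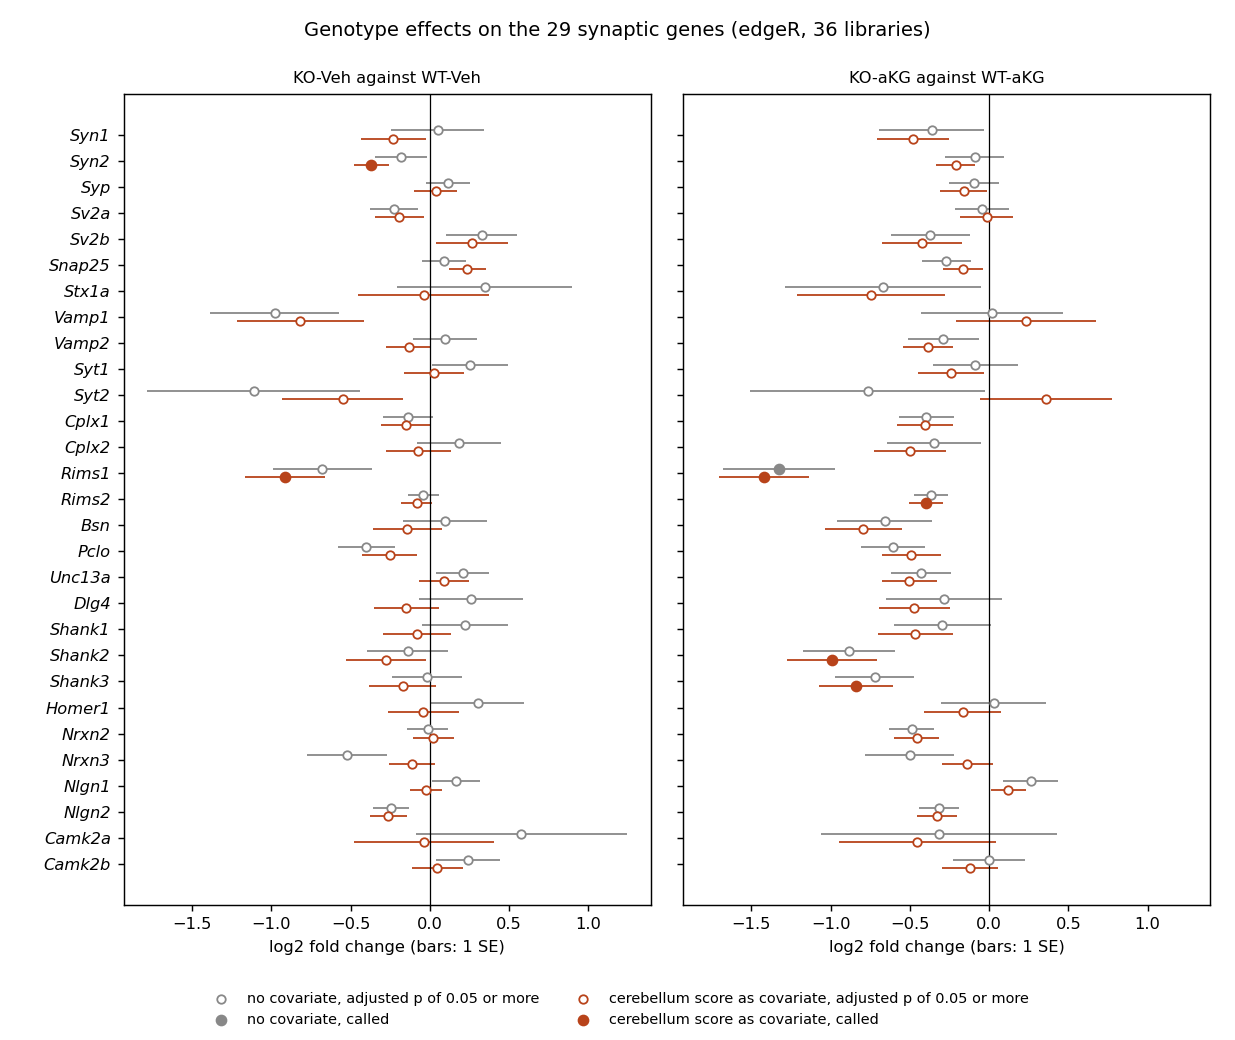
Log2 fold changes between genotypes for the 29 genes, KO-Veh against WT-Veh on the left and KO-aKG against WT-aKG on the right, without (grey) and with (red) the cerebellum score as covariate. Points are edgeR estimates, bars 1 SE and filled points an adjusted p under 0.05; in the right panel Rims1 stands at -1.33 and -1.42.

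The second comparison asks the same in mice given dm-αKG. Without the covariate 1 of 29 genes fell in KO-aKG, Rims1, beside 0.751% of all genes tested that fell, 1.12% that rose and 1.87% in either direction. With the covariate 4 of 29 fell and 0 rose, beside 1.8% that fell, 1.78% that rose and 3.59% in either direction: Rims1, Rims2, Shank2 and Shank3. Differences were below 0 for 25 of 29 genes without and 26 with the covariate, with medians of -0.35 and -0.41 against -0.02 and 0.01 over all genes tested. With limma on the unscaled CPM values, 20 of 29 were below 0 in each case, where the median of all genes lay as high as 0.16 without and 0.22 with the covariate.

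Rims1 had 34.4 to 115 CPM in KO-aKG libraries with a median of 61.2, and 79.3 to 403 CPM in WT-aKG libraries with a median of 131. All 8 KO-aKG libraries lay below the WT-aKG median and 6 of 8 below the lowest WT-aKG library, so that the ranges overlap by 2 libraries. Means were 68.8 ± 28.5 and 172.8 ± 118 CPM (SD, n = 8 each). The log2 fold change was -1.33 (SE 0.35, 95% interval -2.02 to -0.64, edgeR adjusted p = 0.0407) without and -1.42 (SE 0.28, 95% interval -1.97 to -0.86, adjusted p = 0.00346) with the covariate. The fitted level in KO-aKG was thus 0.374 of that in WT-aKG. With the covariate the call held without each of the 36 libraries in turn (highest adjusted p = 0.019). Without the covariate it was lost without KO-aKG replicate 2, 4, 5, 6, 7 or 8 or WT-aKG replicate 1, 2, 4 or 6 (adjusted p up to 0.132). It was also lost there with the mitochondrial ribosomal RNA share as a covariate (-1.06, adjusted p = 0.0536), and in that fit Nrxn2, a neurexin, was the 1 gene called (-0.49, adjusted p = 0.048).

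Rims2, the paralogue of Rims1, had the narrowest spread of the called genes. It lay between 57.4 and 86.8 CPM in KO-aKG with a median of 66.9, and between 77.4 and 113 CPM in WT-aKG with a median of 83.3. In KO-aKG 7 of 8 libraries stood below every WT-aKG library. The log2 fold change was -0.37 (SE 0.11, adjusted p = 0.0749) without and -0.40 (SE 0.11, 95% interval -0.61 to -0.19, edgeR adjusted p = 0.031) with the covariate. The call was lost without KO-aKG replicate 1, 2, 5 or 8 or WT-aKG replicate 1, 4 or 6 (adjusted p up to 0.111).

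Shank2 and Shank3 encode master scaffolds of the excitatory postsynaptic density. Shank2 ran from 11.6 to 55.7 CPM in KO-aKG with a median of 28.4 and from 19.7 to 91.97 CPM in WT-aKG with a median of 55.5. Its log2 fold change was -0.89 (SE 0.29, adjusted p = 0.109) without and -0.99 (SE 0.28, 95% interval -1.55 to -0.44, edgeR adjusted p = 0.0422) with the covariate. Shank3 ran from 28.2 to 119 CPM in KO-aKG with a median of 72.9 and from 52.5 to 164 CPM in WT-aKG with a median of 129.8. Its log2 fold change was -0.72 (SE 0.25, adjusted p = 0.136) without and -0.84 (SE 0.24, 95% interval -1.30 to -0.38, adjusted p = 0.0385) with the covariate. The ranges of both genes overlap, with 5 of 8 WT-aKG libraries above the highest KO-aKG library for Shank3 and 4 of 8 for Shank2. The Shank3 call was lost without KO-aKG replicate 2, 5, 6 or 8 or WT-aKG replicate 1, 2, 3, 4 or 6 (adjusted p up to 0.0998). The Shank2 call was lost without any of 15 libraries (KO-aKG replicates 2, 5, 6 and 8, KO-Veh replicates 1 and 10, WT-aKG replicates 1, 2, 3, 4, 6 and 7, and WT-Veh replicates 4, 8 and 10; adjusted p up to 0.128).

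Hindbrain content moved with this comparison: 5 of 8 KO-aKG and 2 of 8 WT-aKG libraries were hindbrain-high. Within KO-aKG, Rims1 had a median of 54.0 CPM (34.4 to 74.9) in the 5 and of 105 CPM (46.2 to 115) in the other 3. Within WT-aKG it had 79.3 and 79.9 CPM in the 2, and 95.02 to 403 CPM with a median of 149 in the other 6. Without the 9 hindbrain-high libraries of the series, which leaves 3 KO-aKG and 6 WT-aKG libraries, 0 of 29 genes were called in either fit: Rims1 was at -1.18 (adjusted p = 0.629) without and at -1.45 (adjusted p = 0.108) with the cerebellum covariate, Rims2 at -0.39 (adjusted p = 0.366), Shank3 at -0.77 (0.301) and Shank2 at -0.81 (0.342), the last 3 with the covariate. With scores of 4 other regions added to the cerebellum score, Rims1 remained called at -0.73 (adjusted p = 0.0495), and Shank2 (-0.33), Shank3 (-0.41) and Rims2 (-0.27) were not. With the mitochondrial ribosomal RNA share beside the cerebellum score, Rims1 (-1.33, adjusted p = 0.014) and Nlgn2 (-0.46, adjusted p = 0.0394) were called. Alternative settings with the cerebellum covariate called 54 to 1120 of all genes tested in this comparison.

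**Figure D4:**
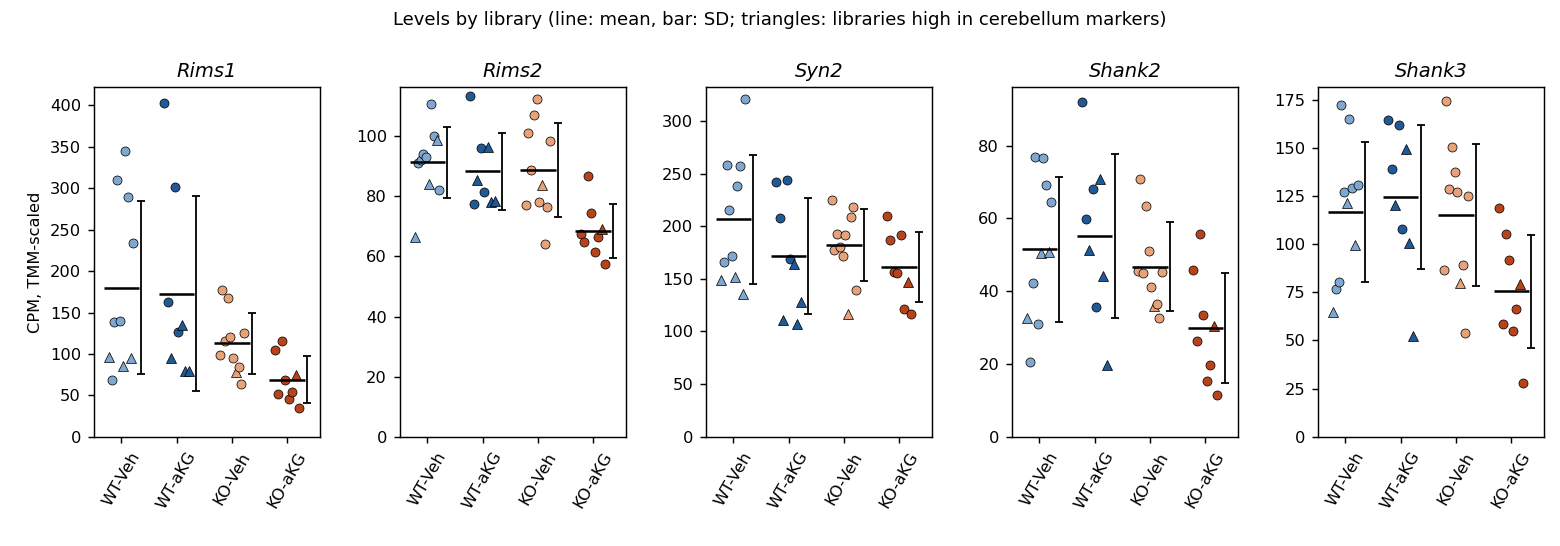
Levels of the 5 genes called in a genotype comparison, in CPM by library and group (10 WT-Veh, 8 WT-aKG, 10 KO-Veh, 8 KO-aKG). Lines are means, bars SDs and triangles libraries with a high cerebellum score; for Rims1, 6 of 8 KO-aKG libraries lie below the lowest WT-aKG library.

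Among the genes not called in mice given dm-αKG, those nearest to the threshold with the covariate were Bsn (-0.79, SE 0.24, edgeR adjusted p = 0.0572), Nrxn2 (-0.46, SE 0.14, adjusted p = 0.0614) and Unc13a (-0.50, SE 0.17, adjusted p = 0.0926). Bsn was called without KO-aKG replicate 3 or 7, WT-Veh replicate 2 or WT-aKG replicate 5 or 8, and Nrxn2 without KO-aKG replicate 3 or WT-aKG replicate 5 or 8. DESeq2 called 6 genes in that fit, the 4 above with Bsn and Nrxn2. Annotated exons of Gm47303 overlap Bsn on the same strand, and opposite-strand exons overlap Nrxn2 and Shank3, and likewise Nlgn1, Nrxn3, Pclo, Shank1, Sv2b, Syn1, Syp and Unc13a, so their counts may include reads of other genes. Of the 3 genes above 0 with the covariate, Syt2 was at 0.36 (SE 0.41), Vamp1 at 0.23 (SE 0.44) and Nlgn1 at 0.12 (SE 0.11). Camk2a was at -0.45 (SE 0.50), and its levels ran from 57.5 to 2199 CPM in WT-aKG alone. The vesicle proteins Syp (-0.16, SE 0.15) and Sv2a (-0.02, SE 0.17) were near 0.

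The effect of dm-αKG itself was compared within each genotype. In WT mice 0 of 29 genes were called with or without the covariate, beside 0.00615% and 0% of all genes tested. At an unadjusted p under 0.05 these counts were 2 and 0, and DESeq2 called 0 in both fits. The share of all genes tested at that unadjusted threshold was not counted. With the covariate the differences ran from -0.31 (Syn2, SE 0.12) to 0.12 (Cplx1, SE 0.16), with a median of -0.10. With the mitochondrial ribosomal RNA share added, Syn2 (-0.37, adjusted p = 0.0474) and Nlgn1 (-0.36, adjusted p = 0.0319) were called. Alternative settings of the fit with the covariate called 0 to 801 of all genes tested, against 1 in the main fit.

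In KO mice 0 of 29 genes were called by edgeR in either fit, beside 0% of all genes tested. DESeq2 called 0 without and 1 with the covariate. The differences were below 0 for 27 of 29 genes in both fits, with medians of -0.48 without and -0.43 with the covariate, against -0.01 and 0.00 over all genes tested. At an unadjusted p under 0.05 there were 13 and 17 genes. The share of all genes tested at that threshold was not counted, so these 2 counts are not a result particular to the 29 genes. With limma on the unscaled CPM values, 23 and 26 of 29 were below 0. Adjusted p-values with the covariate were at least 0.114. The lowest was that of Unc13a (-0.65, SE 0.16), with 24.0 to 60.1 CPM in KO-aKG and 41.6 to 79.3 CPM in KO-Veh, which DESeq2 called (-0.65, adjusted p = 0.0381) and which was the 1 gene it called in that fit. Sv2b was at -0.83 (SE 0.24, adjusted p = 0.118), with 50.01 to 224 CPM in KO-aKG against 138 to 296 CPM in KO-Veh. Leaving out KO-aKG replicate 1 or KO-Veh replicate 8 gave 2 calls each in the fit with the covariate, Unc13a with Sv2b (adjusted p = 0.0435 and 0.0418) and Unc13a with Rims2 (0.0459 each).

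The 2 genes above 0 in KO mice were Vamp1 (1.10, SE 0.42, adjusted p = 0.173) and Syt2 (0.81, SE 0.39, adjusted p = 0.291), both with the covariate. All 5 hindbrain markers tested were above 0 in the same comparison, with a median of 3.84, and so were all 10 oligodendrocyte markers, with a median of 0.78. Only 5 of 13 hindbrain markers passed the low-count filter, and hindbrain-high libraries were 5 in KO-aKG and 0 in KO-Veh. The shared sign and the median of the hindbrain markers may follow from that filter and are not taken as separate support. The 9 cortical markers had a median of -0.63, and 7 of them were below 0. The pan-neuronal markers had a median of -0.02, with 6 of 12 below 0. The oligodendrocyte score ran from 6.68 to 8.50 in KO-Veh and from 7.53 to 9.33 in KO-aKG. With scores of the cerebral cortex, striatum, hypothalamus and hindbrain added to the cerebellum score, 21 of 29 genes were below 0 in place of 27, and their median was -0.10, against -0.01 over all genes tested. In that fit Unc13a was at -0.22, Bsn at -0.15, Rims1 at 0.0034, Shank2 at -0.00034, Syt2 at -0.11 and Vamp1 at -0.05, and 0 genes were called. The hindbrain score in that fit rests on the same 5 markers, so the smaller shift is given as a description only. The part of the oligodendrocyte content in the shift was not tested. A single library, KO-aKG replicate 8, held the lowest value of all 36 for 15 of the 29 genes, with 11717237 counts and a hindbrain score of 3.32.

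**Figure D5:**
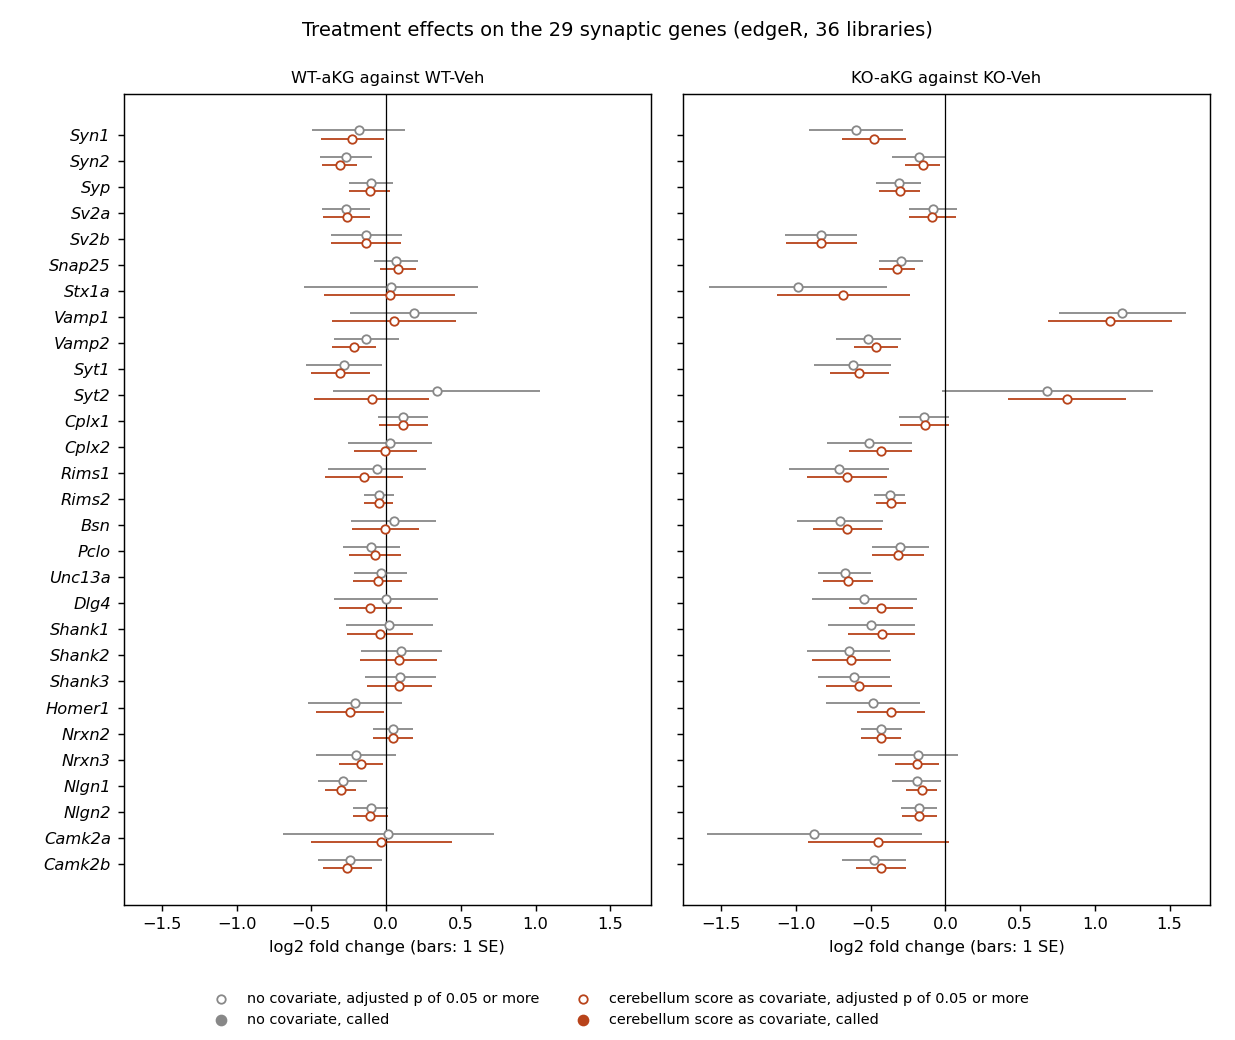
Log2 fold changes with dm-αKG for the 29 genes, in WT on the left and KO on the right, without (grey) and with (red) the cerebellum score as covariate; bars are 1 SE. No point is called; in KO mice 27 of 29 estimates lie below 0, and Vamp1 and Syt2 lie above it.

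The interaction asks whether dm-αKG acted differently in KO and WT mice. No gene was called among the 29, beside 0% of all genes tested, in either fit, and DESeq2 called 0. At an unadjusted p under 0.05 there were 5 genes without and 7 with the covariate, and all genes tested were not counted at that threshold. With the covariate 24 of 29 estimates were below 0 and the median was -0.27, and with the 4 other region scores added these were 15 of 29 and -0.05. Unc13a (-0.59, SE 0.23, edgeR adjusted p = 0.679) and Nrxn2 (-0.48, SE 0.19, adjusted p = 0.679) had the lowest unadjusted p-values, 0.0142 and 0.0151, and Vamp1 (1.05, SE 0.58) had the highest estimate. The genotype effects under vehicle and dm-αKG were thus not shown to differ for Rims1, whose interaction was -0.51 (SE 0.37, adjusted p = 0.751).

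Ratios between paralogues, as differences of log2 CPM within a library, describe how the balance of 2 copies varied across libraries and carry no test. Syt2 to Syt1 ran from -6.87 to -0.90 over the 36 libraries, with the highest value in WT-aKG replicate 8 and the lowest in WT-aKG replicate 4. Vamp1 to Vamp2 ran from -5.09 to -0.36, and the libraries nearest 0 were WT-aKG replicate 8, KO-aKG replicate 8 and WT-Veh replicate 2, all 3 hindbrain-high. Camk2a to Camk2b ran from -2.26 (WT-Veh replicate 1) to 2.93 (KO-Veh replicate 4). WT-Veh replicate 1 and KO-Veh replicate 7, the lowest of their groups, both have a high cerebellum score.

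Rims1 to Rims2 averaged 0.77 ± 0.78 in WT-Veh (SD, n = 10), 0.73 ± 0.71 in WT-aKG (n = 8), 0.30 ± 0.32 in KO-Veh (n = 10) and -0.09 ± 0.45 in KO-aKG (n = 8). The ranges of all 4 groups overlap, from -0.74 to 0.64 in KO-aKG and from 0.02 to 1.83 in WT-aKG. Sv2b to Sv2a averaged -0.06 ± 0.61 in KO-Veh and -0.96 ± 0.87 in KO-aKG, and -0.67 and -0.58 in WT-Veh and WT-aKG. Shank1 to Shank3 averaged 0.48 ± 0.30 and 0.38 ± 0.41 in WT-Veh and WT-aKG, and 0.70 ± 0.29 and 0.83 ± 0.24 in KO-Veh and KO-aKG. The ranges overlap, from -0.15 to 0.87 in WT-aKG and from 0.50 to 1.19 in KO-aKG. WT-Veh replicate 6 and WT-aKG replicate 3, the lowest of their groups, both have a high cerebellum score. Cplx1 to Cplx2 stayed between -0.68 and 1.64.

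Other genes of the same pathways were taken from a list of 51 release genes and a list of 39 scaffold and adhesion genes, all of which passed the filter. Without the covariate 1 of 51 release genes was called in mice given dm-αKG, Erc1 (-0.68, SE 0.18, edgeR adjusted p = 0.0348), which encodes ELKS, an active zone partner of RIM, and 0 of 39 scaffold genes. Of all genes tested, 1.87% were called in that fit. With the covariate 4 of 51 release genes fell in KO-aKG, beside 1.8% of all genes tested that fell. Among them were Apba1 (-0.69), an adaptor that binds Munc18, Lin7a (-0.67), a PDZ protein in complex with it, and Erc1 (-0.58). Igsf9b (-0.60), an adhesion protein of inhibitory synapses, was the 1 of 39 scaffold genes that fell. Under vehicle, with the covariate, Syt4 (0.41) rose and Iqsec1 (-0.25) fell, 1 of each list, and without it 0 of 90 were called. Of all genes tested, 5.94% were called with and 4.31% without the covariate. Neither list had a call for treatment or interaction in either fit.

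The medians of these lists, like that of the 29 genes, lay below 0 in both comparisons with KO-aKG. In mice given dm-αKG, with the covariate, the medians were -0.05 for the release and -0.14 for the scaffold list, and in KO mice given dm-αKG against vehicle they were -0.13 and -0.24. On the cerebellum score, 35 of 51 release genes changed, 24 lower and 11 higher, and 33 of 39 scaffold genes, 25 lower and 8 higher. The steepest release genes were Cplx3 (-0.61), a complexin, Rimbp2 (-0.55), which binds RIM, and the synaptotagmins Syt5 (-0.47) and Syt9 (0.45). Among the steepest scaffold genes were Homer3 (0.66), a Homer of Purkinje cells, Dlgap2 (-0.61), a partner of PSD-95, and Kalrn (-0.52), an exchange factor of dendritic spines.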

How the data were processed

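RNA was captured by oligo-dT with barcodes and molecular identifiers and tagmented, per the labels' protocols. The tools featureCounts 2.0.6, HISAT2 2.2.1 and Trim Galore 0.6.10 were used, per the submitters' processing notes, which name both mm10 and mm39. The sources used here do not say whether strand was used or identifiers collapsed. A deposited file holds estimated counts, and the other holds CPM values from the authors. No 2 of the 146 pairs of libraries within a group held identical counts.

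Counts of 36 libraries in 4 groups were fitted with edgeR 4.0.16 (R 4.3.3; robust quasi-likelihood, TMM, filterByExpr) over 16255 genes, without a covariate and with the cerebellum score (mean log2 CPM, prior count 2). Calls are at an adjusted p (Benjamini-Hochberg, over these genes) under 0.05. CPM printed for a library are TMM-scaled. Alternatives used DESeq2 1.42.0, limma 3.58.1 on log2 of the CPM table with pseudocounts 1 and 0.1, other covariates and left-out libraries. The scripts were tested on simulated data. The 29 genes and the gene lists were chosen with earlier results of these data known. By the rule for names, any of the 29 genes may be named, and of the lists of other release and scaffold genes up to 4 called genes each per comparison, those with the largest differences. Some genes that the rule names are not reported here. The precision of a value is set by the spread between libraries rather than by their depth.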

Additional observations from a re-analysis of the deposited data

Results flagged for a closer look

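Among 116 sets of values (29 genes in 4 groups), 8 held a library that stood apart from the others of its group by Dixon's criterion, which chance meets in about 1 of 20 sets. Vamp1, the vesicle SNARE of fast hindbrain synapses, had such a library in each group: WT-Veh replicate 2 at 168.5 CPM (next 48.4), WT-aKG replicate 8 at 162.9 CPM (next 72.8), KO-Veh replicate 7 at 34.6 CPM (next 23.6) and KO-aKG replicate 8 at 115.3 CPM (next 57.8). Of these 4 libraries, WT-Veh replicate 2, WT-aKG replicate 8 and KO-aKG replicate 8 have a high hindbrain score, and KO-Veh replicate 7 has a high cerebellum score.

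KO-Veh replicate 7 also stood apart for Syt2 at 75.0 CPM (next 12.3), for Nrxn3 at 388.3 CPM (next 208.5) and, on the low side, for Nlgn1 at 17.6 CPM (next 28.7). Syp, the vesicle protein synaptophysin, stood apart in WT-Veh replicate 3 at 342.3 CPM (next 229.8).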

How the results depend on the processing

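Counts of called genes among the 29 depended on the settings. With the cerebellum covariate, 4 genes were called between genotypes with dm-αKG. This count was 1 with 4 region scores added, 2 and 2 by limma on the CPM table with pseudocounts 0.1 and 1, 2 with the mitochondrial ribosomal RNA share, 1 without a low-count filter, 2 on only the groups compared and 0 without the hindbrain-high libraries, and it rose to 5 with a linear score (Syn1 added), 5 with a sex covariate (Bsn added) and 6 by DESeq2 (Bsn and Nrxn2 added). Under vehicle 2 genes were called. That count was 1 with the granule cell score, 1 with the Purkinje cell score, 1 on only the groups compared, and 0 by limma with either pseudocount (0 and 0), 0 with a linear score and 0 without the filter. It was 3 with 4 region scores added (Nlgn2 gained) and 3 with the mitochondrial share (Sv2a and Nlgn2 gained, Rims1 lost). DESeq2 called 1 for treatment in KO, and the mitochondrial share gave 2 for treatment in WT. Without the cerebellum covariate, 1 gene was called between genotypes with dm-αKG. That count was 3 by DESeq2, 0 and 0 by limma with pseudocounts 0.1 and 1, 0 without the filter, 0 on only the groups compared, 2 with a sex covariate, 3 without cerebellum-high libraries and 0 without hindbrain-high ones. Under vehicle the mitochondrial share gave 4 in place of 0. Of slopes, 3 in place of 21 were called with 4 region scores added. Calls among all genes tested also changed, with the cerebellum covariate from 503 to 1952 under vehicle and from 54 to 1120 with dm-αKG. Changes in the counts among the 29 genes, also those with a replicate block below, are therefore not a result particular to them. Causes were not tested. The mitochondrial share and the hindbrain-high libraries were chosen after seeing the data.

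Slopes that changed sign with 4 region scores added were Syp (0.0491), Stx1a (0.0404), Syt1 (0.0395), Unc13a (0.0747), Shank3 (0.00612), Homer1 (0.0279) and Camk2b (0.0449), and Syp was at 0.0025 by limma with either pseudocount. Leaving out each library in turn gave 0 to 1 calls under vehicle, 0 to 4 with dm-αKG and 0 to 0 for both treatments and the interaction without the covariate. With it the ranges were 0 to 3, 1 to 6, 0 to 0 (treatment in WT), 0 to 2 (treatment in KO) and 0 to 0, and 18 to 23 for slopes.

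Replicate numbers were tested as a pairing. Deviations of same-numbered libraries had a median correlation of 0.107 (26 of 50 pairs over 0.1), against -0.016 for 434 other pairs (163 over 0.1). Of 36 libraries, 8 correlated best with their own number. These values do not decide whether the numbers pair samples, and the main fits do not use them. With a replicate block, 7 genes were called between genotypes with dm-αKG and the cerebellum covariate, in place of 4 (Bsn, Unc13a and Nrxn2 gained). Without that covariate the block kept the count at 1 but exchanged Rims1 (-1.25, adjusted p = 0.0582) for Nrxn2 (-0.49, adjusted p = 0.0465). Over all genes tested, counts of calls ranged from 163 to 2675 (vehicle) and from 49 to 798 (dm-αKG) without and from 503 to 1952 and from 54 to 1120 with the cerebellum covariate. For treatment in WT these ranges were 0 to 244 without and 0 to 801 with that covariate, and in KO 0 to 0 and 0 to 99. Leaving out single libraries gave 0 to 121 for treatment in KO with that covariate. A fit on only the groups compared does not apply to the interaction.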
